A study of Saccharomyces cerevisiae with 4 samples.

Results

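The 7 genes of trehalose synthesis and breakdown in Saccharomyces cerevisiae were compared between the Sen1ΔN strain and the wild type. They are TPS1, TPS2, TPS3 and TSL1, which encode the trehalose synthase complex, and NTH1, NTH2 and ATH1, which encode the trehalases. Sen1 is a nuclear helicase that helps to end transcription of many short RNAs, and by its name the Sen1ΔN protein lacks part of its N terminus. The genes were chosen by their role in the pathway, with earlier results of these data known. All 7 had a probe set on the Affymetrix Yeast Genome array, 1 each, among 5449 yeast genes measured.

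The Sen1ΔN group comprised 2 arrays of a MATα strain, labelled Sen1_delta_N, with the alleles ade2-101 and his3-200, lys2-801 and trp1-_delta_1, and ura3-52, together with an entry that joins both loci, leu2-_delta_1::sen1-2. The wild type comprised 2 arrays of BY4741, a MATa laboratory strain with his3_delta_1 and leu2_delta_0 as well as met15_delta_0 and ura3_delta_0. Both strains were untreated, carry alleles in HIS3, LEU2 and URA3, and were grown in synthetic complete medium with 2% glucose at 24 °C to an OD600 of 1.5, in exponential phase. By the series' design text, each strain was grown in 2 separate experiments. The strains differ in mating type and in markers besides SEN1, so the effect of the sen1 allele and that of the background cannot be told apart in any difference below.

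Trehalose is a disaccharide of glucose that yeast stores and that protects proteins and membranes under heat, drying and other stress. Tps1 joins UDP-glucose and glucose 6-phosphate to trehalose 6-phosphate, which also restrains hexokinase and so the entry of glucose into glycolysis, and Tps2 removes the phosphate. Tps3 and Tsl1 are related large subunits that hold and regulate the complex. Trehalose is split to glucose by Nth1, the main neutral trehalase of the cytosol, by its paralog Nth2, and by Ath1, the acid trehalase that acts on trehalose outside the cell. Several genes of both sides are known to be induced by Msn2 and Msn4, the activators of the general stress response, which protein kinase A holds back while glucose is plentiful.

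Every trehalose gene lay lower on the Sen1ΔN arrays than on the wild-type arrays, on the synthesis side and on the breakdown side alike. All 7 passed limma's test (adjusted p under 0.05, Benjamini-Hochberg adjustment over 5449 genes), and 2 of them, NTH1 and TSL1, fell by at least 2-fold. Of all genes, 69.7% were called in either direction, 34.4% were called lower and 11.3% were called lower by at least 2-fold. The median difference, Sen1ΔN minus wild type, was -0.78 on the log2 scale over the 7 genes and 0.014 over all genes. Values are log2 signals after robust multi-array averaging (RMA), so a difference of -1 is a halving of signal. In RNA of whole cultures, fewer cells with a transcript and less transcript per cell cannot be told apart.

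**Figure D1:**
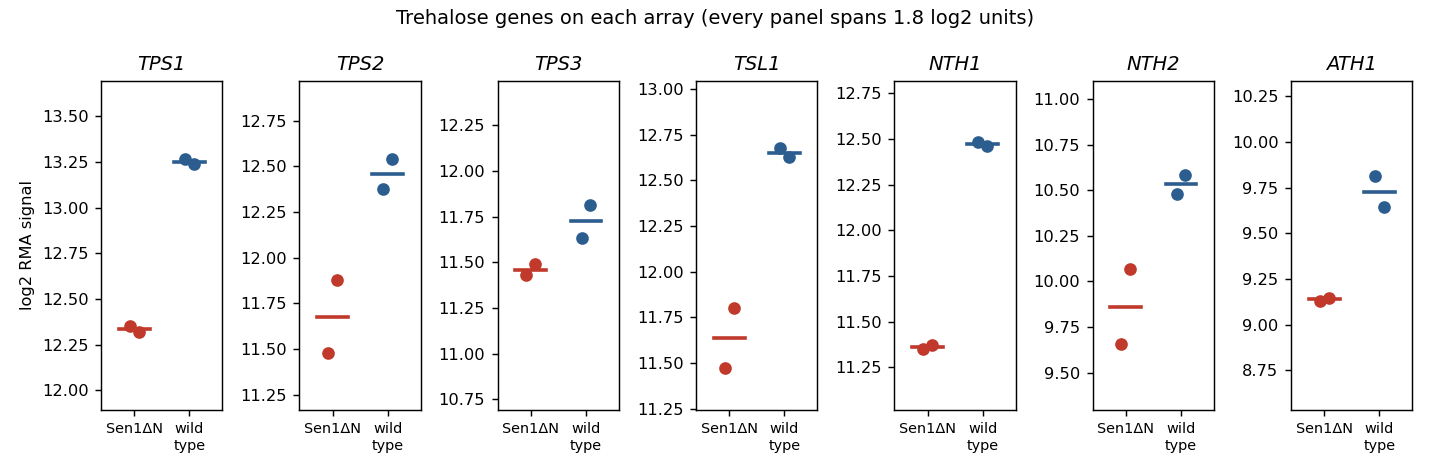
Log2 RMA signal of each trehalose gene on the Sen1ΔN arrays (left, red) and the wild-type arrays (right, blue), with points for single arrays and bars for the mean of 2. Each panel has its own position on the axis but the same span, so distances can be compared between panels, and in each panel both Sen1ΔN arrays lie below both wild-type arrays.

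TPS1, the synthase gene itself, had a log2 signal of 12.35 and 12.32 on the Sen1ΔN arrays, against 13.27 and 13.24 on the wild-type arrays. The arrays of a strain lay within 0.03 of each other, and the strains were 0.89 apart at their nearest. TPS1 fell by 0.92 log2 (SE 0.06, limma adjusted p = 0.000371, with 2 arrays in each strain), to 53.0% of the wild-type signal with a 95% interval of 47.2 to 59.5%. TPS2, the phosphatase gene, had 11.48 and 11.88 on the Sen1ΔN arrays, against 12.38 and 12.54 on the wild-type arrays. The strains did not overlap, but the Sen1ΔN arrays were 0.40 apart. TPS2 fell by 0.78 (SE 0.15, limma adjusted p = 0.00862), to 58.1% of the wild type, and an unmoderated linear model, which takes the spread of each gene alone, gave it an adjusted p of 0.106.

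The related regulatory subunits TSL1 and TPS3 had the largest and the smallest fall within the complex. TSL1 had 11.47 and 11.80 on the Sen1ΔN arrays, against 12.68 and 12.63 on the wild-type arrays. Both Sen1ΔN arrays were low, the first more so. TSL1 fell by 1.01 (SE 0.12, limma adjusted p = 0.00179), to 49.5% of the wild type with an interval of 39.6 to 61.9%, and its adjusted p was 0.0539 in the unmoderated model. TPS3 had 11.43 and 11.49 on the Sen1ΔN arrays, against 11.64 and 11.81 on the wild-type arrays. The gap between the strains, 0.14, was smaller than the distance of 0.18 between the wild-type arrays. TPS3 fell by 0.26 (SE 0.09, limma adjusted p = 0.0456), to 83.3% of the wild type. Its call was lost in 9 of 12 alternative settings, among them each fit without 1 array and the removal of a trend of differences on gene length (adjusted p = 0.0691). Without wild type replicate 2 its difference was -0.18 (limma adjusted p = 0.254).

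Among the trehalases, NTH1 had the largest fall, and its replicates agreed closely in both strains. NTH1 had 11.35 and 11.37 on the Sen1ΔN arrays, against 12.48 and 12.46 on the wild-type arrays. The arrays of each strain were 0.02 apart and the strains at least 1.09. NTH1 fell by 1.11 (SE 0.06, limma adjusted p = 0.000236), to 46.4% of the wild type with an interval of 41.3 to 52.0%. NTH2, its paralog, had 9.66 and 10.07 on the Sen1ΔN arrays, against 10.48 and 10.58 on the wild-type arrays. Here too the strains did not overlap and the Sen1ΔN arrays stood far apart, by 0.41. NTH2 fell by 0.67 (SE 0.15, limma adjusted p = 0.0133), to 62.9% of the wild type. The call was lost without wild type replicate 2 (adjusted p = 0.0542) and in the unmoderated model (adjusted p = 0.124). How well the probe sets tell the transcripts of these paralogs apart was not tested.

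ATH1, whose enzyme lets cells grow on external trehalose, had 9.13 and 9.15 on the Sen1ΔN arrays, against 9.81 and 9.64 on the wild-type arrays. The Sen1ΔN arrays were close together and the wild-type arrays 0.17 apart, without overlap. ATH1 fell by 0.59 (SE 0.08, limma adjusted p = 0.00302), to 66.5% of the wild type. TPS1, NTH1 and ATH1 were the 3 genes that the unmoderated model also called, where 22.7% of all genes were called lower. With 2 arrays in each strain, the smallest p that exact permutation can give is 0.33, and the smaller values from limma rest on a spread shared across genes.

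Most pairs of trehalose genes had overlapping 95% intervals for their falls, which is not a test of a difference between them. Ordered by their log2 differences, the genes ran NTH1 (-1.11), TSL1 (-1.01), TPS1 (-0.92), TPS2 (-0.78), NTH2 (-0.67), ATH1 (-0.59) and TPS3 (-0.26). No neighbours in this order had 95% intervals that lay apart. Of the 21 pairs, 4 did: NTH1 against ATH1, and NTH1, TSL1 and TPS1 each against TPS3. Averaged over genes, the difference was -0.74 for the 4 synthase complex genes and -0.79 for the 3 trehalases. The mean log2 signal of the synthase complex genes was 11.68 and 11.87 on the Sen1ΔN arrays, against 12.49 and 12.56 on the wild-type arrays. That of the trehalases was 10.05 and 10.20 on the Sen1ΔN arrays, against 10.93 and 10.90 on the wild-type arrays. The level of one side cannot be set against that of the other, since the probe sets differ, but each side lay lower on both Sen1ΔN arrays by a similar amount.

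Within the paralog pairs the falls were unequal in these arrays. The log2 ratio of TSL1 to TPS3 was 0.045 and 0.31 on the Sen1ΔN arrays, against 1.04 and 0.82 on the wild-type arrays, a change of -0.75. The log2 ratio of NTH1 to NTH2 was 1.69 and 1.31 on the Sen1ΔN arrays, against 2.00 and 1.88 on the wild-type arrays, a change of -0.44. In both pairs the strains did not overlap, and the exact permutation test gave p = 0.33 (two-sided, the same after Benjamini-Hochberg adjustment over the 2 pairs), the smallest value that this design allows. Only the change of each ratio can be read, because different probe sets give different signals at the same RNA level. The change of the NTH1 ratio was -0.63 without Sen1ΔN replicate 1 and -0.25 without Sen1ΔN replicate 2.

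**Figure D2:**
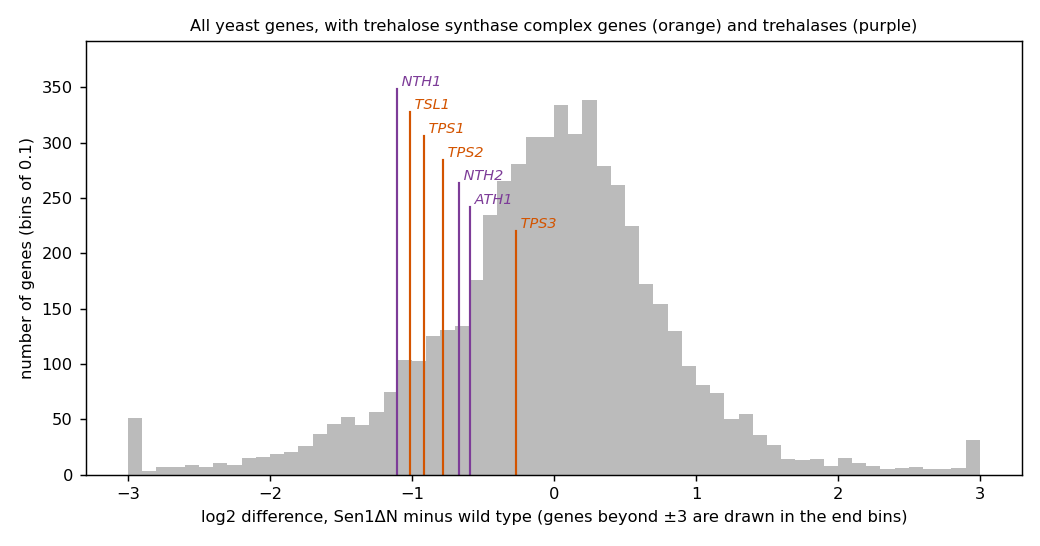
Histogram of the log2 difference, Sen1ΔN minus wild type, of all 5449 genes in bins of 0.1, with vertical lines for the trehalose synthase complex genes (orange) and the trehalases (purple). The heights of the lines only separate the names. All 7 lines lie left of 0, with NTH1 farthest left and TPS3 inside the bulk of the distribution.

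Large differences were common between these strains, as the histogram of all genes shows. NTH1 was passed on the low side by 504 genes (9.25%), TSL1 by 596 (10.9%) and TPS3 by 1879 (34.5%). Both Sen1ΔN arrays lay below both wild-type arrays for all 7 trehalose genes and for 42.9% of all genes. The trehalose genes are long, from 1488 to 3636 bp. Among the 1878 genes of that length span, 34.3% were called lower and the median difference was -0.017. Removing the trend of differences on gene length gave a difference of -0.74 for TPS1, the shortest (limma adjusted p = 0.000711), and of -1.06 for NTH1, and the median of the 7 genes was then -0.74.

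The trehalose genes lie on 4 chromosomes and on both strands, and none is next to another. Of their 14 protein-coding neighbours, 13 were measured. Among these 2 fell, 6 rose and 5 did not pass the test, with a median difference of 0.18, where 34.4% of all genes were called lower and 35.3% higher. RER2, beside NTH2, fell by 1.47 (SE 0.18, limma adjusted p = 0.00187), whereas SNF11, beside TPS2, rose by 1.32 (SE 0.07, limma adjusted p = 0.000207). PTC4, the measured neighbour of TPS1, differed by 0.047 (limma adjusted p = 0.667).

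Checks on the arrays as a whole bear on all values. The signal of SEN1 was 12.01 and 12.17 on the Sen1ΔN arrays, against 10.66 and 10.57 on the wild-type arrays, which does not check the truncation, as it is not known here which stretch of the transcript is probed. All 5 marker genes of MATa cells fell and all 4 of MATα cells rose, which matches the labelled mating types. Several control transcripts probed at both ends differed between the arrays of the strains, and not only those of yeast. Of 8 yeast mRNA controls, 6 had a 5′ signal above the background level on every array. This leaves out SRB4 and the marker gene URA3. For these 6, the 3′ minus 5′ difference ran from 2.20 to 5.91 log2 on the Sen1ΔN arrays. It ran from 0.15 to 2.29 on the wild-type arrays. Within each control it was higher on the Sen1ΔN arrays by 1.24 to 4.03, with a median of 2.38. The 3′ signal of these 6 controls differed by -0.89 to 0.91 and their 5′ signal by -4.22 to -0.83. The Bacillus subtilis controls dap, lys, phe and thr, which are not yeast RNA, also had a higher 3′ minus 5′ difference there. On 1 probe set pair for each, it was higher on the Sen1ΔN arrays by 2.60, 2.49, 2.97 and 2.54 log2. Unlike in the yeast controls, the 3′ signal of all these pairs was higher on the Sen1ΔN arrays, by 1.56 to 1.89. Their 5′ signal differed by -1.08 to -0.68. The 5′ signal of these controls was not above the background level on every array. What produced the shift was not tested. Where the probe sets of the trehalose genes lie along the transcripts is not known here, and the part of this shift in their falls was not tested. All 7 genes lay at least 3.77 log2 above the background level on every array.

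The genes that supply the substrates of Tps1 were also lower. Of 7 genes for sugar phosphorylation and UDP-glucose, 6 fell, none rose and HXK2 did not pass, with a median difference of -0.93. Among all genes, 34.4% were called lower and 35.3% higher. UGP1, which encodes the enzyme that makes UDP-glucose, had 12.50 and 12.54 on the Sen1ΔN arrays, against 13.56 and 13.62 on the wild-type arrays, and fell by 1.07 (SE 0.07, limma adjusted p = 0.000288). The phosphoglucomutase genes, which provide glucose 1-phosphate for it, fell by unequal amounts. PGM2, the major one, had 9.74 and 10.34 on the Sen1ΔN arrays, against 12.63 and 12.76 on the wild-type arrays, a difference of -2.66 (SE 0.21), while the minor PGM1 differed by -0.80 (SE 0.09).

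The sugar kinases of this list differed in their response. The glucokinase gene GLK1 had 11.94 and 12.10 on the Sen1ΔN arrays, against 13.61 and 13.73 on the wild-type arrays, a difference of -1.65 (SE 0.09, limma adjusted p = 0.000217). HXK1, the hexokinase gene of cells short of glucose, and EMI2, a paralog of GLK1, differed by -0.93 and -0.88, and both calls were lost in the unmoderated model (adjusted p = 0.0997 and 0.155). The call of EMI2 was also lost without wild type replicate 2 (-0.82, adjusted p = 0.0637), and without Sen1ΔN replicate 1 its difference was -0.56. HXK2, the main hexokinase gene on glucose, had 13.74 and 13.58 on the Sen1ΔN arrays, against 13.78 and 13.80 on the wild-type arrays. Its difference of -0.13 (SE 0.08, limma adjusted p = 0.201) did not pass and turned to 0.051 with the length trend removed.

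**Figure D3:**
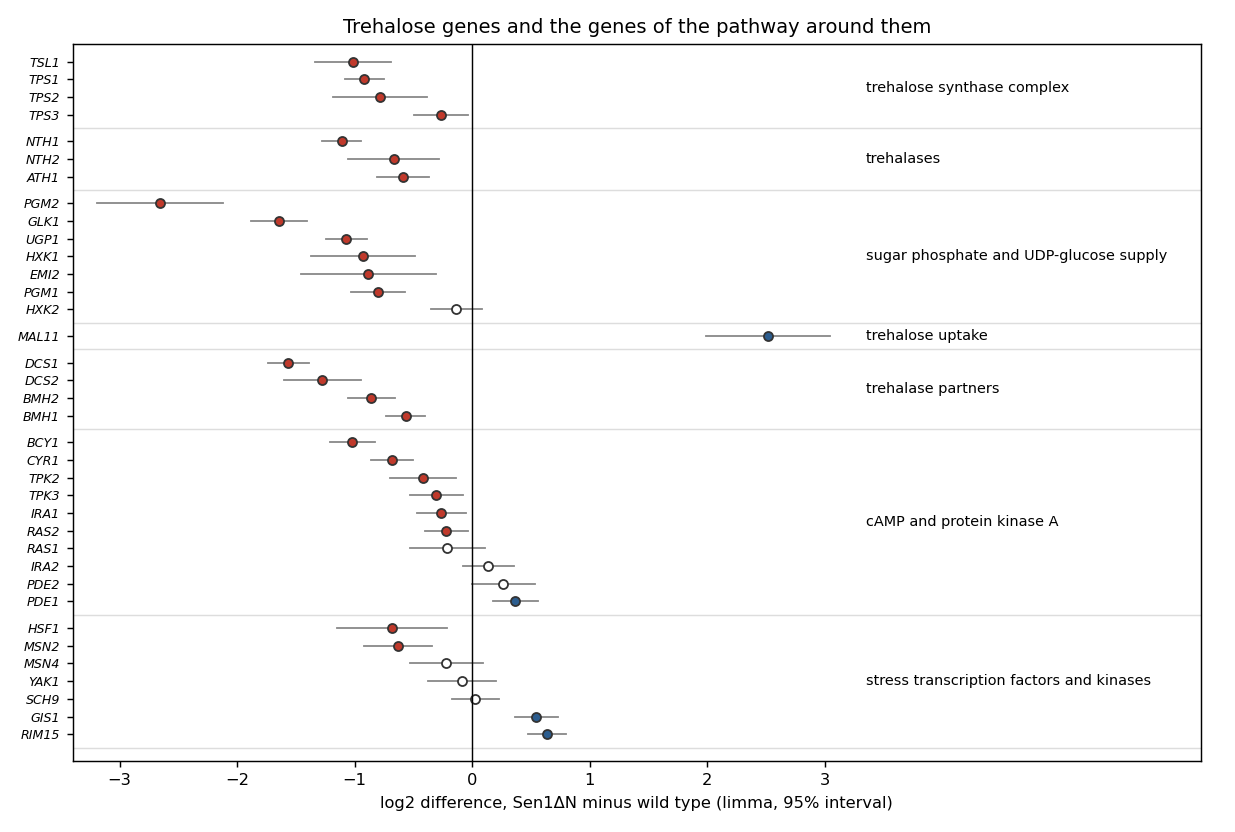
Log2 difference, Sen1ΔN minus wild type, with its 95% interval from limma, for the trehalose genes and the genes around them, grouped by role. Filled points passed an adjusted p of 0.05 (red lower, blue higher) and open points did not. The trehalose, supply and trehalase partner genes lie left of 0, the regulators lie on both sides, and MAL11 lies farthest to the right.

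MAL11, also called AGT1, encodes a proton symporter that takes up trehalose and maltose, and it went the other way. It had 8.77 and 9.36 on the Sen1ΔN arrays, against 6.52 and 6.58 on the wild-type arrays. It rose by 2.52 (SE 0.20, limma adjusted p = 0.000503), or 5.72-fold, from a low wild-type signal. MAL11 lay 1.26 log2 above the background level on its lowest array, a wild-type one, against at least 3.77 for the trehalose genes. Its family has several similar members near chromosome ends that differ between laboratory strains. Which of these its probe set can detect was not tested.

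Genes of Nth1's partners were lower. BMH1 and BMH2 encode the 14-3-3 proteins that bind phosphorylated Nth1 and activate it. BMH2 had 12.64 and 12.50 on the Sen1ΔN arrays, against 13.42 and 13.44 on the wild-type arrays, a difference of -0.86 (SE 0.08), and BMH1 differed by -0.57 (SE 0.06). DCS1, the gene of a scavenger decapping enzyme, had 10.61 and 10.65 on the Sen1ΔN arrays, against 12.23 and 12.16 on the wild-type arrays. It fell by 1.56 (SE 0.07, limma adjusted p = 0.000135), and its paralog DCS2 fell by 1.27 (SE 0.13). All 4 genes of this list were called lower, where 34.4% of all genes were, and their median was -1.07.

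The regulators of the pathway changed in both directions. Of 7 genes for stress transcription factors and their kinases, 2 fell, 2 rose and 3 did not pass, with a median of -0.089. This count is near the shares of all genes, 34.4% called lower and 35.3% called higher. MSN2 had 10.02 and 9.75 on the Sen1ΔN arrays, against 10.55 and 10.48 on the wild-type arrays, and fell by 0.63 (SE 0.11, limma adjusted p = 0.00613), whereas MSN4 differed by -0.22 (SE 0.12, limma adjusted p = 0.154). The heat shock factor gene HSF1 fell by 0.68 (SE 0.18), a call that was lost with the replicate block (adjusted p = 0.0687), without wild type replicate 1 (adjusted p = 0.0838) and in the unmoderated model (adjusted p = 0.161). Without Sen1ΔN replicate 1 its difference was -0.45. MSN2 was not called in the unmoderated model either (adjusted p = 0.0811). RIM15, the gene of a kinase that acts on entry into stationary phase, had 9.80 and 9.79 on the Sen1ΔN arrays, against 9.17 and 9.15 on the wild-type arrays, and rose by 0.64 (SE 0.06, limma adjusted p = 0.000955). GIS1, a transcription factor gene that works downstream of Rim15, rose by 0.54 (SE 0.07).

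Protein kinase A, which cAMP activates, phosphorylates Nth1 and restrains Msn2 and Msn4. Of 10 measured genes for its subunits and for cAMP turnover, 6 fell, 1 rose and 3 did not pass, with a median of -0.24. BCY1, which encodes the inhibitory subunit, had 11.08 and 11.20 on the Sen1ΔN arrays, against 12.15 and 12.17 on the wild-type arrays, and fell by 1.02 (SE 0.07, limma adjusted p = 0.000394). The adenylate cyclase gene CYR1 fell by 0.68 (SE 0.07, limma adjusted p = 0.00104). The falls of the catalytic subunit genes TPK2 (-0.42) and TPK3 (-0.30) and of RAS2 (-0.22) were small. All 3 calls were lost with the length trend removed (adjusted p = 0.141, 0.369 and 0.594) and in the unmoderated model. Leaving out 1 array ended the call of RAS2 in 4 of 4 fits, of TPK3 in 3 and of TPK2 in 1, the fit without wild type replicate 2 (adjusted p = 0.0935). IRA1 fell by 0.26, a call lost in the unmoderated model (adjusted p = 0.112) and in each fit without 1 array. The replicate block and quantile normalization also ended the calls of RAS2 (adjusted p = 0.0738 and 0.362) and IRA1 (adjusted p = 0.0691 and 0.0681). The phosphodiesterase gene PDE1 rose by 0.37, a call lost in the unmoderated model (adjusted p = 0.0558) and without wild type replicate 1 (adjusted p = 0.0639) or 2 (adjusted p = 0.056). Over all 5 lists around the pathway, 18 of 29 measured genes fell and 4 rose, against 34.4% called lower and 35.3% called higher among all genes.

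The nearest relatives in storage and stress showed larger median falls with more exceptions. Of 7 glycogen genes 4 fell and 1 rose, where 34.4% of all genes were called lower and 35.3% higher. Their median was -1.03, with a range from -1.66 to 1.44. Of 12 genes of the Msn2 and Msn4 stress response 10 fell and 1 rose. Their median was -1.28, with a range from -4.39 to 0.53. The 7 trehalose genes ranged from -1.11 to -0.26. The difference between these lists was not tested.

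The 2 Sen1ΔN arrays did not agree equally on all trehalose genes. TPS2, TSL1 and NTH2 were higher on the second Sen1ΔN array by 0.40, 0.33 and 0.41 log2, distances exceeded by 6.42%, 10.6% and 6.09% of all genes. TPS1, TPS3, NTH1 and ATH1 differed between these arrays by at most 0.062, below the median of 0.11 over all genes. Between the wild-type arrays no trehalose gene differed by more than 0.18. Among the supply genes, PGM2, HXK1 and EMI2 were also higher on the second Sen1ΔN array, by 0.59, 0.49 and 0.64.

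Genes with the pattern most like that of NTH1 and TSL1, the trehalose genes with the largest differences, were sought by the root mean square distance between log2 values over the 4 arrays, each gene centred on its mean. For NTH1 they were PAL1, MRL1 and the amino acid permease gene BAP3, at distances of 0.024, 0.024 and 0.028. PAL1 had 9.91 and 9.95 on the Sen1ΔN arrays, against 11.10 and 11.01 on the wild-type arrays. For TSL1 they were YJL163C, the stress gene DDR2 and MNN4, at 0.028, 0.032 and 0.032. DDR2 had 12.64 and 12.93 on the Sen1ΔN arrays, against 13.79 and 13.82 on the wild-type arrays, with the second Sen1ΔN array the higher one as in TSL1. The trehalose gene nearest to NTH1 was TPS1, in place 175 of all genes at 0.098, and the one nearest to TSL1 was NTH1, in place 108 at 0.12. With 4 arrays many genes share such a pattern.

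**Figure D4:**
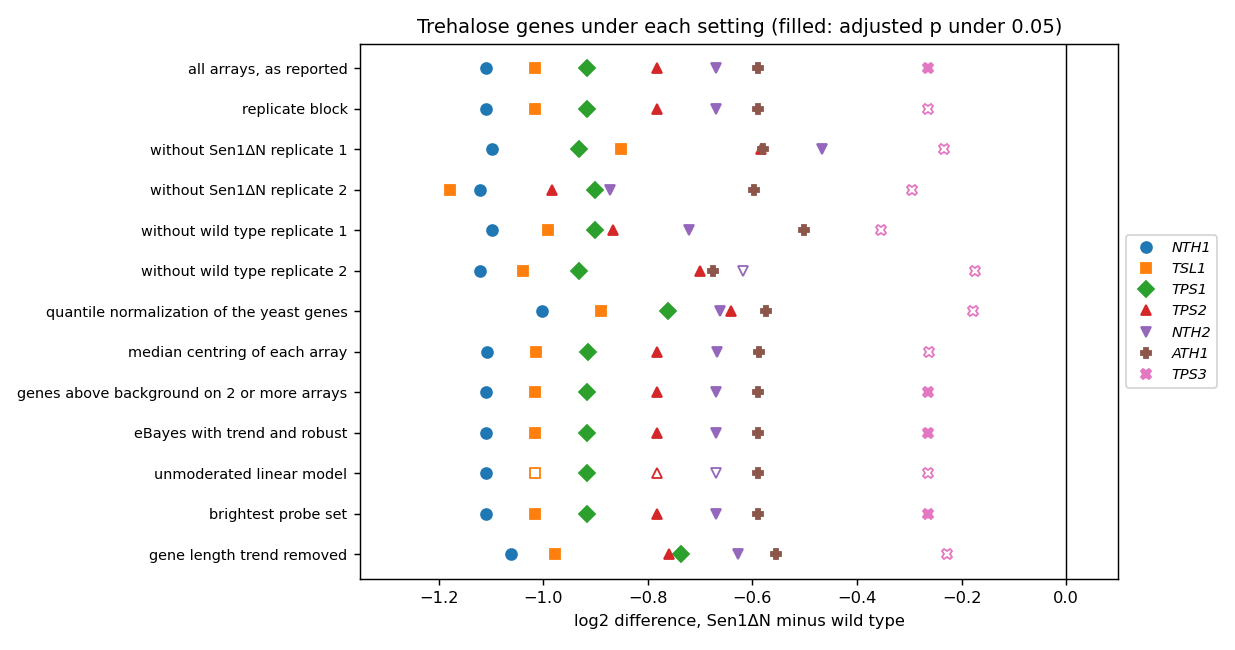
Log2 difference, Sen1ΔN minus wild type, of each trehalose gene as reported (top) and under 12 alternative settings. Filled symbols passed an adjusted p of 0.05 and open ones did not. All values lie below 0, NTH1, TPS1 and ATH1 are filled in every setting, and TPS3 is open in 9 of the 12 alternatives.

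The direction of every trehalose gene was the same under the 12 alternative settings shown in the plot of differences by setting. NTH1, TPS1 and ATH1 were called lower in all 12, TSL1 and TPS2 in 11, NTH2 in 10 and TPS3 in 3. The difference of NTH1 ranged from -1.12 to -1.002 and that of TPS1 from -0.93 to -0.74. The widest ranges were those of NTH2, from -0.87 to -0.47, and TPS2, from -0.98 to -0.58, both set by leaving out one or the other Sen1ΔN array.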

How the data were processed

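Total RNA of 2 Sen1ΔN and 2 wild-type cultures was measured on 1 array each. The table the authors deposited holds log2 values, 1 for each probe set on each array. RMA and Affymetrix Expression Console made them, per the submitters' processing notes. Their versions are not given in the sources used here. RMA sets arrays to a common distribution, which hides a change in total mRNA per cell. Precision is limited by there being 2 arrays in each strain.

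Of 10928 probe sets, 5498 carried 1 S. cerevisiae gene in the platform annotation, matched to the R64 RefSeq table, and gave 5449 genes after averaging the probe sets of 47 genes. The 95th percentile of 1746 S. pombe probe sets on each array was the background level. Sen1ΔN minus wild type was fitted for all genes with limma 3.58.1 in R 4.3.3 (lmFit, eBayes), two-sided and adjusted after Benjamini-Hochberg, on 2 residual degrees of freedom. The fit was also run on simulated data in which few genes changed, unlike the data here, so that run does not check the calls above. Ratios of paralogs were compared by exact permutation (scipy 1.17.1). Neighbours were taken from gene order alone.

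The members and gene lists were chosen with earlier results of these data known. The genes named are the 7 members, those of the lists, SEN1, control transcripts, direct neighbours, and the 3 genes most like each of the 2 members with the largest difference. The neighbours named were chosen after their values were seen. The settings varied were a replicate block, 1 array left out in turn, 2 normalizations, a background filter, 2 variance models, the brightest probe set and subtraction of a loess fit on gene length (span 0.5, degree 1).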

Additional observations from a re-analysis of the deposited data

How the results depend on the processing

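The 7 trehalose genes kept a negative difference under all 12 alternatives, and the count called lower was between 5 and 6 when each array was left out in turn. The call of TPS3 was lost with quantile normalization of the yeast genes (difference -0.18, adjusted p = 0.122), median centring (-0.26, adjusted p = 0.0513), the length trend removed (-0.23, adjusted p = 0.0691), the unmoderated model (-0.26, adjusted p = 0.148) and the fits without 1 array (-0.35 to -0.18, adjusted p = 0.0547 to 0.254). NTH2 lost its call without wild type replicate 2, within a range of -0.87 to -0.47 over the fits without 1 array. The unmoderated model, which has 2 residual degrees of freedom and no shared spread, also ended the calls of TPS2 (-0.78), TSL1 (-1.01) and NTH2 (-0.67). It called 3 trehalose genes lower, 1236 of all genes lower and 1209 higher, against 1875 and 1921 with limma, and 10 of the genes around the pathway lower, against 18. The replicate numbers are shared by the titles only. Deviations of same-numbered arrays from their strain means correlated at -0.034 across 5449 genes, and with the replicate block 1730 genes were called lower and 1741 higher, with 6 trehalose genes lower and TPS3 not called (-0.26, adjusted p = 0.0528). The direction of 3 genes that had not passed the test turned: YAK1 to 0.049 without Sen1ΔN replicate 1, SCH9 to -0.042 without wild type replicate 1 (0.097 without wild type replicate 2) and HXK2 to 0.051 with the length trend removed. The cause of these changes was not tested. Fits without 1 array assume that the lone array varies like those of the other strain.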

Other observations

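Hybridization controls, spiked into the labelled samples, were brighter on the Sen1ΔN arrays. These controls are bioB, bioC, bioD and cre, each probed by more than 1 pair of 3′ and 5′ probe sets. Over the 12 pairs, the 3′ signal differed by 0.55 to 1.90 log2, while the 3′ minus 5′ difference changed by -0.28 to 0.21. YPR027C, the neighbour of ATH1, had 7.70 and 8.17 log2 on the Sen1ΔN arrays, against 4.59 and 4.96 on the wild-type arrays, which lie below the background level of 5.26 and 5.23. ATH1 itself was lower on the Sen1ΔN arrays. YPR027C was named after its values were seen.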
